A study of Mus musculus with 15 samples.

Results

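Integrins are the receptors that tie podocytes to the glomerular basement membrane, and 42 mouse genes for integrins and their focal adhesion partners were followed here through mechanical stretch. The genes were chosen by name and held 18 integrin subunits, 22 cytoplasmic adhesion proteins and 2 other membrane proteins, dystroglycan (Dag1) and caveolin-1 (Cav1). All 42 were found among the 55416 genes of the count table. RNA came from 15 cultures of SVI cells, a conditionally immortalised mouse podocyte line that was differentiated and grown on flexible silicone membranes. Podocytes are the epithelial cells that wrap the glomerular capillaries of the kidney, and the stretch was meant as a model of high pressure in the glomerulus. Experiment 1 compared 6 cultures under low stretch, with a membrane deflection of 5 to 6 mm, with 3 unstretched cultures. Experiment 2 compared 3 cultures under high stretch, with a deflection of 7 to 8 mm, with 3 unstretched cultures of its own. The design text names single deflections of 6 and 8 mm in place of these ranges. Each amplitude was run in 1 experiment only, so amplitude and experiment cannot be told apart. All samples were of this 1 line, and no label says that replicates came from separate cell preparations, so p-values measure the spread between these samples, which may be technical.

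An integrin is a pair of an alpha and a beta subunit that together bind extracellular matrix. Talin and kindlin bind the beta tail and switch the receptor on, while the complex of integrin-linked kinase, PINCH and parvin, together with vinculin, zyxin and tensin, couples it to actin. Focal adhesion kinase, Src and the scaffold p130Cas turn the force on these links into signals. In podocytes the laminin receptor of alpha3 and beta1 is the main anchor, and dystroglycan is a second laminin receptor outside the integrin family.

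The promoter windows of Itgb6 and Vcl are shown because the gene for beta6 integrin was called lower in both experiments and because vinculin held both motifs that were searched. The windows are the 250 bases before a RefSeq gene start in GRCm38.p6, 5′ to 3′ on the gene's strand, with motif matches in capitals. The Itgb6 window lies at chr2:60673694-60673943 on the minus strand and the Vcl window at chr14:20929148-20929397 on the plus strand.
Itgb6: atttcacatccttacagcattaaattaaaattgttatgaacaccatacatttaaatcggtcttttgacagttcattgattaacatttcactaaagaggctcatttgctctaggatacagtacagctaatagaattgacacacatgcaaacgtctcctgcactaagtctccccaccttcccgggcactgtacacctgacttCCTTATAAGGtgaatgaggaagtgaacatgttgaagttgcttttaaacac
Vcl: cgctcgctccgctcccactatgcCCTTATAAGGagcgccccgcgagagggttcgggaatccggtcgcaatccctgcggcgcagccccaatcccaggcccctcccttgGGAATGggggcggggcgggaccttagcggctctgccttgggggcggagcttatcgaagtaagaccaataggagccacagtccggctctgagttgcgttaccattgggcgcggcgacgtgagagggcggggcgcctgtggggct
The SRF CArG box and the TEAD motif GGAATG were searched on both strands, and they are the sites read by serum response factor with its actin-sensing cofactors and by the partners of YAP. The CArG box was found in 3 of 41 windows of 31 members (Fermt2, Itgb6 and Vcl), against 1.47% of 32851 windows of all genes. In Itgb6 it started 50 bases before the start shown, which lies downstream of the other listed start of this gene. The window of that upstream start (chr2:60722604-60722853) held no match. Which start these cells used was not tested. The TEAD motif was found in 4 of the 41 windows (Itga10, Itgb1, Lpp and Vcl), against 12.6% of all windows. In Vcl the CArG box started 227 bases and the TEAD motif 143 bases before the gene start. These matches are letters only, and no binding was measured.

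The samples held 172211836 to 396658285 counts, of which the 42 genes took 0.772 to 0.899%. Counts of mitochondrial genes took 3.55 to 5.21% in experiment 1 and 1.14 to 2.60% in experiment 2, where unstretched replicate 3 had the highest share. The sample codes end in consecutive plate positions, and each unstretched sample was taken here with the stretched samples that follow it as a plate run, which gave 3 runs per experiment. This division is not in the labels, and no source says that a run was a culture batch. In experiment 1 stretched and unstretched samples of a run deviated together from their group means. Their mean r was 0.438 over 6 pairs (0.327 to 0.570). The mean of -0.218 over the 12 pairs from different runs is no separate result, because deviations from group means must balance. Of 12 podocyte markers, 7 (Synpo, Podxl, Wt1, Cd2ap, Magi2, Kirrel and Lmx1b) reached a mean of 1 TPM in the unstretched cultures of experiment 1. The same 7 did so under low stretch. In experiment 2 there were 6 in the unstretched cultures (not Magi2) and 5 under high stretch (neither Magi2 nor Wt1). Tcf21 was listed at 0 in both stretched groups. TPM is a level per transcript length, scaled to the same total in every sample. Wt1 fell under high stretch (log2 fold change -2.36, edgeR adjusted p = 0.0311). The 8 mesangial and fibroblast markers, led by Acta2, summed to 1438 to 2341 TPM unstretched and 1720 to 4118 TPM under low stretch in experiment 1, and to 2621 to 4926 TPM and 5645 to 7654 TPM in experiment 2. Nearly all of that sum was Acta2, which did not pass in either main fit (edgeR adjusted p = 0.136 and 0.269). Ren1 was listed at 0 TPM. Of the 4 markers tested, Pdgfrb fell under low stretch in the main edgeR fit. Under high stretch 0 passed there, with 1 unadjusted p under 0.05 and 0 calls in DESeq2. With the plate run as a block, edgeR called 1 up and 2 down under low stretch (28.2% of all genes called). It called 1 up under high stretch (8.35%). DESeq2 called 1 up and 1 down under low stretch (13.1%). The 8 tubule and parietal markers summed to 293 to 512 TPM and 179 to 307 TPM in experiment 1, and to 404 to 556 TPM unstretched and 149 to 187 TPM under high stretch. Of the 6 tested, Lrp2 fell under low stretch and Aqp1 under high stretch. The 8 endothelial markers never exceeded a sum of 3.72 TPM, and the 8 macrophage and leukocyte markers summed to at most 32.8 TPM. The part of Wt1, Acta2, Pdgfrb, Lrp2 and Aqp1 in the results below was not tested, and in bulk RNA fewer cells of a type and less RNA per cell cannot be told apart.

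Levels per length differed widely between subunits and between the experiments. In the unstretched cultures of experiment 1, Itgb1, the beta1 chain shared by laminin and collagen receptors, averaged 515 ± 12.2 TPM (SD, n = 3), ahead of zyxin (Zyx) at 459 ± 25.4 TPM and Cav1 at 349 ± 55.8 TPM. The ranges of Itgb1 and Zyx did not overlap. Itga3 (251 ± 33.4 TPM), Ilk (233 ± 5.40 TPM) and Dag1 (203 ± 45.4 TPM) followed with overlapping ranges, and so did Itgb5 (186 ± 24.1 TPM) and Bcar1 (173 ± 34.5 TPM). Among alpha chains the order was Itga3, Itgav (98.0 ± 6.51 TPM), Itga1 (63.6 ± 22 TPM), Itga5 (21.3 ± 2.81 TPM), Itga6 (17.1 ± 1.35 TPM) and Itga7 (14.7 ± 1.74 TPM). Itga5 and Itga6 lay next to each other, with ranges of 18.1 to 23.3 and 15.5 to 18 TPM, and the ranges of Itga6 and Itga7 (13.3 to 16.7 TPM) overlapped. Itgb6, Itga4, Itga2, Itgb4, Itga8, Itga11 and Fermt1 averaged 0.393 TPM or less.

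The unstretched cultures of experiment 2 had a different order. Zyx led with 742 ± 116 TPM, followed by Ilk (344 ± 58.5 TPM), Itga3 (305 ± 18 TPM) and Itgb5 (274 ± 29.0 TPM). Itgb1 averaged 165 ± 87.2 TPM there, with a highest value of 265 TPM against a lowest of 508 TPM in experiment 1. Itgav (30.9 ± 18.9 TPM), Lims1 (24 ± 13.8 TPM) and Lpp (6.45 ± 4.91 TPM) were also below every unstretched sample of experiment 1. The experiments were not compared by a test here, and each stretched group was set only against its own unstretched cultures.

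**Figure D1:**
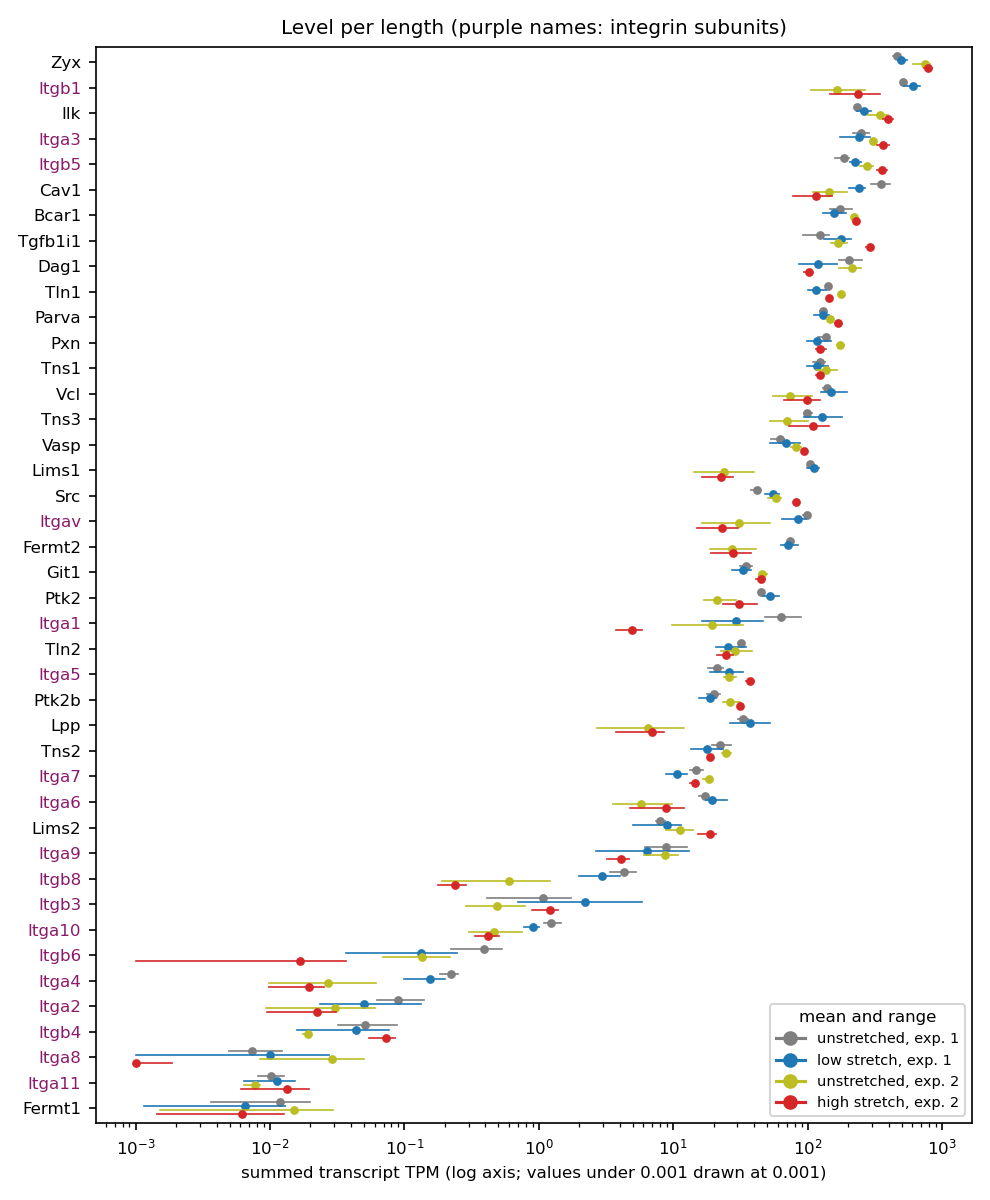
Summed transcript TPM of the 42 genes on a log axis, with the mean (point) and range (line) of each group of 3 or 6 cultures; integrin names are purple and genes are ordered by their mean over all samples. Zyx and Itgb1 lie at the top, Itgb1 at 515 TPM in experiment 1 and 165 TPM in experiment 2 without stretch, and 7 genes lie under 1 TPM in every group.

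Low stretch lowered 2 sparse integrin chains, Itgb6 and Itga4, and raised 2 signalling kinases, Ptk2 and Src. These were 4 of 40 members tested with edgeR at an adjusted p under 0.05, or 2 up and 2 down, against 5.45% of all 21672 genes tested, 1.85% of them up and 3.6% down. The kindlin-1 gene Fermt1 and Itga8 had too few counts to be tested, with at most 24 and 11 counts in any sample of the study. The median log2 fold change was -0.18 over the 17 integrins tested, 0.19 over the 21 cytoplasmic proteins and 0.01 over all genes. The groups did not overlap for 10 of 40 members, against 15.1% of all genes tested. The 7 that were higher were Itga6, Itgb1, Itgb5, Lims1, Ptk2, Src and Zyx (6.87% of all genes), and the 3 that were lower were Itga1, Itga4 and Itgb6 (8.2% of all genes). DESeq2 called 10 of 40 members, against 13.1% of all genes, and limma on summed TPM called 2 of 35 (Cav1 and Src), against 7.3%.

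The number of members called under low stretch depended on the plate runs. With the run as a block, 19 of 40 members passed in edgeR, 11 up and 8 down, against 28.2% of all genes tested (13.7% up and 14.5% down). The block called 9 of 17 integrins, 8 of 21 cytoplasmic proteins, Dag1 and Cav1. Within the 3 runs, 14 members were higher in every run and 11 were lower in every run. The share of all genes with 1 direction in every run was not computed. These counts can therefore not be read as particular to the members. The median change of the 40 members was 0.20 in run 1, 0.07 in run 2 and -0.04 in run 3 on the log2 scale. Without run 3 the test called 7 members (Dag1, Itga1, Itga5, Itgb1, Itgb6, Src and Tgfb1i1), against 3.95% of all genes. Without run 2 edgeR called 0 members, against 0.867% of all genes, and 11 members had an unadjusted p under 0.05. With each sample left out in turn, 1 to 5 members passed, while the share of all genes called in the same fits ran from 0.998% to 7.57%. Leaving out unstretched replicate 1 or 3 or low-stretch replicate 4 left Itgb6 as the 1 called member, and leaving out unstretched replicate 2 or low-stretch replicate 2 or 3 left 2 members.

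High stretch lowered the collagen receptor chain Itga1 and dystroglycan and raised the beta chains Itgb3 and Itgb4, and the sparse chain Itgb6 was also called lower. These were 5 of 39 members tested, against 3.47% of all 18524 genes tested, with 2 up (1.31% of all genes) and 3 down (2.16%). They were 4 of 16 integrins and Dag1. No cytoplasmic protein of 21 passed in the main edgeR fit or in DESeq2, and 4 of them had an unadjusted p under 0.05 in that edgeR fit. Itga4, Itga8 and Fermt1 had too few counts to be tested. Itgb6 passed the low-count filter only through its unstretched cultures, where it was high. It could enter these counts only as a fall, so its call is no support for one. The median log2 fold change was 0.35 over the 16 integrins, 0.23 over the cytoplasmic proteins and -0.02 over all genes. The groups did not overlap for 10 of 39 members, against 20.9% of all genes. These were Itga3, Itgb3, Itgb4, Parva, Src and Tgfb1i1 on the higher side (10.5% of all genes) and Dag1, Itga1, Itga9 and Itgb6 on the lower side (10.3% of all genes).

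With the plate run, which equals the replicate number in experiment 2, as a block, 10 of 39 members passed, against 8.35% of all genes, 5 up (3.31%) and 5 down (5.03%). Itga6, Lims2 and Tgfb1i1 were added on the higher side and Itga9 and Itgb8 on the lower side. No member passed without high-stretch replicate 1, 2 or 3 or without unstretched replicate 1, where edgeR called 0.0755 to 1.5% of all genes and 7 to 12 members had an unadjusted p under 0.05. Without unstretched replicate 2, 5 members passed against 3.58% of all genes, and without unstretched replicate 3, 8 passed against 7.77%. DESeq2 called 6 members, against 7.57% of all genes, and limma on summed TPM called 2 of 32 (Dag1 and Tgfb1i1), against 2.73%.

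**Figure D2:**
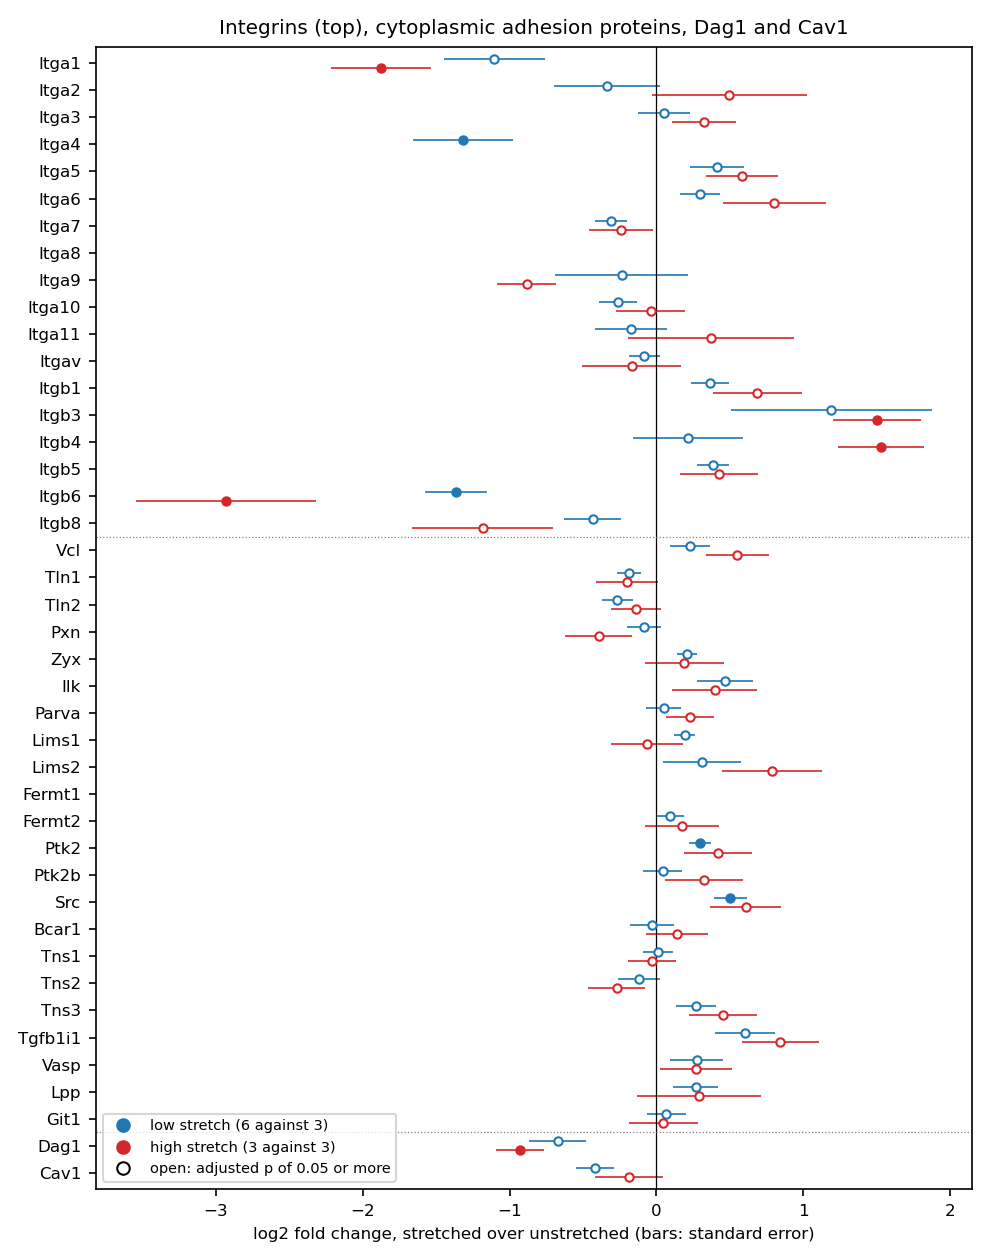
Log2 fold change of each member with its standard error from edgeR, for low stretch (6 against 3 cultures, blue) and high stretch (3 against 3 cultures, red); filled points passed an adjusted p of 0.05. Filled points are few, 4 for low and 5 for high stretch. The lowest value is Itgb6 under high stretch at -2.93, a gene that passed the low-count filter there only through its unstretched cultures.

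No member passed the test of whether the high-stretch effect differed from the low-stretch effect. All 41 members tested missed the threshold in edgeR, as did all 22015 genes (0% called), while 2 members and 547 genes had an unadjusted p under 0.05. DESeq2 also called 0 members and 0 genes, with 2 members at that level before adjustment. With the plate run block 0 members were called, against 0.0136% of all genes. Itgb6 came first, where the difference in log2 fold change, high minus low, was -1.58 ± 0.57 (SE). Itgb4 (1.30 ± 0.52) and Itga4 (-1.67 ± 0.90) followed, and each of these genes had an edgeR adjusted p of 1.00. Under high stretch the counts were only 10, 1 and 16 for Itgb6 and 1, 0 and 2 for Itga4. Itga4 had too few counts for the high-stretch test itself, and Itgb6 entered that test only through its unstretched cultures. The differences of Itgb6 and Itga4 therefore rest on a high-stretch level near 0 counts and are description only.

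The collagen receptor chain alpha1 had the lowest log2 fold change of the members with at least 1 TPM in both experiments. Itga1 stood at 248, 224 and 413 CPM (counts scaled by library size within each experiment) in the unstretched cultures of experiment 1, and ranged from 78.5 to 218 CPM with a median of 118 CPM under low stretch. All 6 stretched cultures were below the lowest unstretched one. The mean was 2.15-fold lower, with a log2 fold change of -1.10 ± 0.34 that did not pass (edgeR adjusted p = 0.0874) but passed with the plate run block (-1.16, adjusted p = 0.000228). In experiment 2, Itga1 read 75.4, 47.4 and 125 CPM without stretch and 23.7, 19.0 and 25.0 CPM with high stretch. The groups were again apart, and Itga1 fell by 1.88 ± 0.34 on the log2 scale, or 3.67-fold in the means (edgeR adjusted p = 0.0266). With 1 sample left out in turn the adjusted p lay between 0.00385 and 0.144. The log2 change was negative in all 6 runs, from -0.94 to -1.30 under low stretch and from -1.32 to -2.33 under high stretch. The other collagen-binding chains were Itga2, Itga10 and Itga11, with log2 fold changes of -0.34, -0.26 and -0.18 under low and 0.50, -0.04 and 0.37 under high stretch, none of which passed. Itga2 and Itga11 had at most 94 and 41 counts in any sample.

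Laminin-binding alpha chains showed smaller differences. Itga3, the main alpha chain of podocytes, gave 671, 785 and 581 CPM unstretched and 485 to 847 CPM (median 762 CPM) under low stretch. The controls lay inside the stretched range, and the log2 fold change was 0.05 ± 0.18 (edgeR adjusted p = 0.889). In experiment 2, Itga3 gave 1023, 1234 and 735 CPM unstretched and 1242, 1257 and 1245 CPM stretched. The stretched cultures lay just above the highest unstretched one, with a log2 fold change of 0.32 ± 0.22 (adjusted p = 0.632). Itga6, the other widely expressed laminin chain, read 33.0, 31.2 and 33.8 CPM unstretched against 34.2 to 53.9 CPM (median 37.2 CPM) under low stretch, and 9.48, 9.11 and 17.9 CPM against 26.9, 13.4 and 23.4 CPM under high stretch. The low-stretch group lay just above its controls (0.30 ± 0.14, adjusted p = 0.225) and the high-stretch group overlapped its controls (0.80 ± 0.35, adjusted p = 0.348). Itga7, another laminin chain, had log2 fold changes of -0.31 and -0.24 (edgeR adjusted p = 0.126 and 0.753), and under low stretch it passed with the plate run block (-0.31, adjusted p = 0.00140).

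Alpha chains that read the RGD motif of fibronectin and vitronectin did not pass. Itgav, the shared partner of several beta chains, gave 320.5, 289 and 346 CPM unstretched and 238 to 327 CPM (median 309 CPM) under low stretch, and 80.0, 62.1 and 142 CPM against 105, 58.3 and 89.4 CPM under high stretch. Both pairs of groups overlapped, with log2 fold changes of -0.08 ± 0.11 and -0.17 ± 0.34 (edgeR adjusted p = 0.663 and 0.919). Itga5, the fibronectin receptor chain, had log2 fold changes of 0.41 and 0.59 and was higher in every run of both experiments, and it passed under low stretch with the plate run block (0.39, adjusted p = 0.00255).

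Alpha4 and alpha9, a related pair of chains that bind VCAM-1, fibronectin and other ligands, were low or variable. Itga4 counts were 72, 45 and 34 in the unstretched and 10 to 42 in the low-stretch cultures, or 0.233, 0.153 and 0.118 CPM against 0.0365 to 0.106 CPM (median 0.0665 CPM). The groups did not overlap in CPM, and Itga4 fell by 1.32 ± 0.34 on the log2 scale (edgeR adjusted p = 0.0498). On the TPM scale they overlapped, at 0.184 to 0.250 TPM unstretched (mean 0.221) and 0.0987 to 0.199 TPM under low stretch (mean 0.156). The edgeR call was marginal: the adjusted p was 0.0503 with RLE size factors and 0.0413 to 0.225 with 1 sample left out in turn. In experiment 2 its counts were 3, 4 and 17 without and 1, 0 and 2 with stretch, which was not tested. Itga9 gave 30.8, 20.8 and 23.4 CPM unstretched and 13.5, 14.0 and 13.1 CPM under high stretch. The stretched cultures lay close together below all controls, and the log2 fold change of -0.89 ± 0.20 did not pass (adjusted p = 0.0585). In experiment 1 the unstretched cultures of runs 1 to 3 read Itga9 at 20.6, 16.4 and 36.0 CPM and the 6 stretched cultures ranged from 10.6 to 37.3 CPM with a median of 15 CPM (log2 fold change -0.24 ± 0.45, adjusted p = 0.787).

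**Figure D3:**
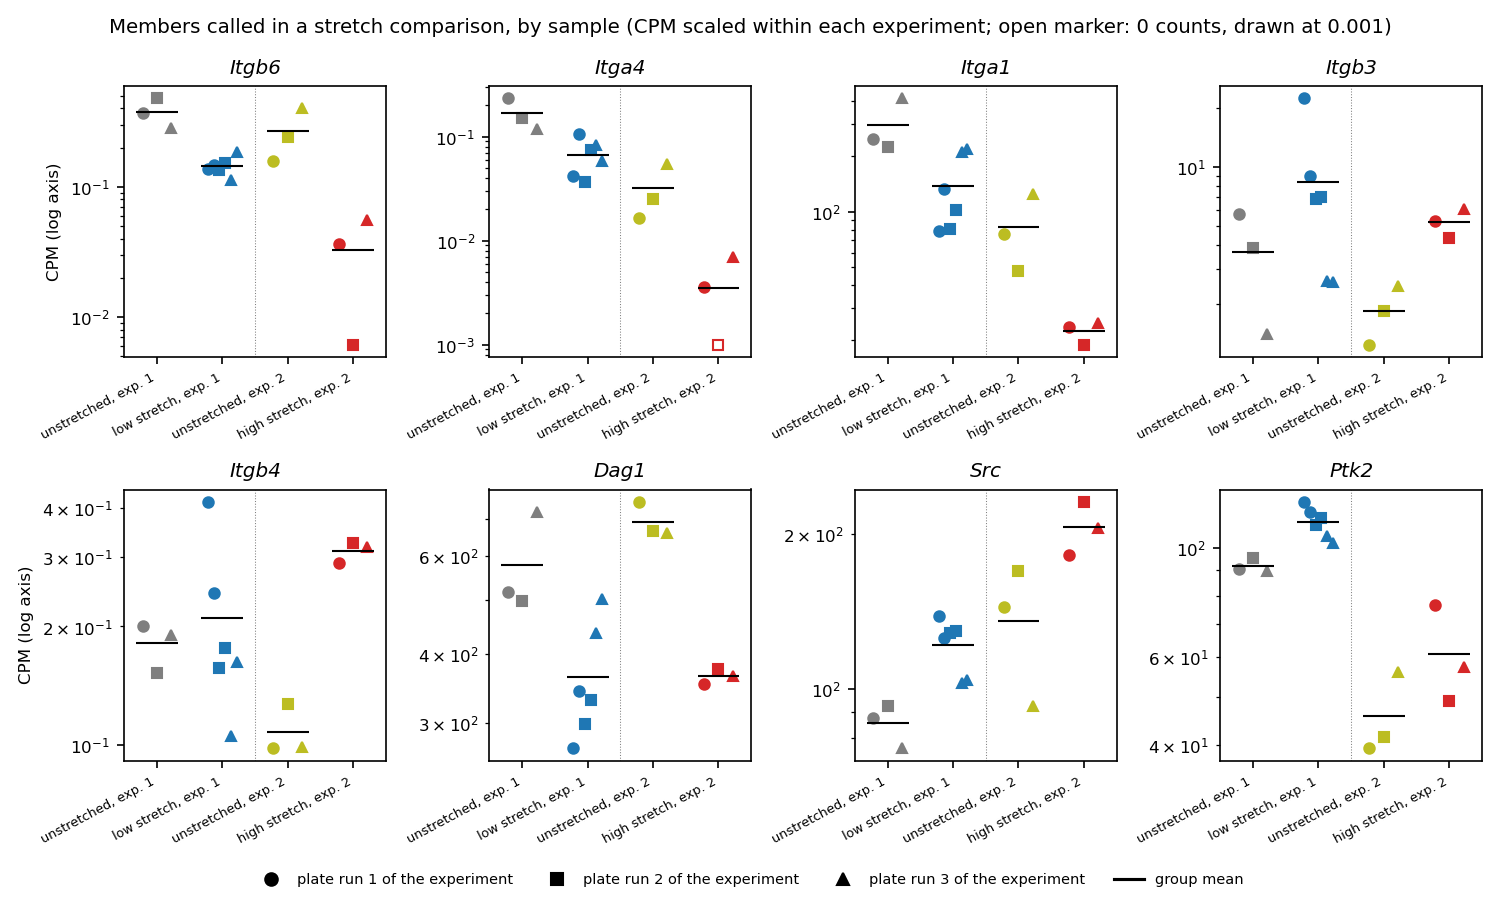
CPM by culture (log axes, scaled within each experiment) for the 8 members called in at least 1 stretch comparison; symbols mark the 3 plate runs of an experiment, bars are group means and the open marker is a culture with 0 counts. Itga1, Itgb6 and Dag1 lie lower in the stretched groups of both experiments, and Itgb4 lies above its controls under high stretch and overlaps them under low stretch.

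Among the beta chains, Itgb6 was called lower in both experiments from a low start. Its counts were 113, 141 and 81 in the unstretched and 30 to 59 in the low-stretch cultures, which is 0.366, 0.478 and 0.281 CPM against 0.113 to 0.186 CPM (median 0.143 CPM). No stretched culture reached an unstretched one in CPM, and Itgb6 fell by 1.36 ± 0.21 on the log2 scale (edgeR adjusted p = 0.00754). On the TPM scale the groups overlapped, at 0.222 to 0.535 TPM unstretched and 0.0365 to 0.244 TPM under low stretch. Leaving out any 1 of the 9 cultures kept the edgeR call, whereas leaving out the 3 cultures of plate run 2 raised the adjusted p to 0.0760. In experiment 2 the counts were 29, 38 and 126 without and 10, 1 and 16 with high stretch. The CPM of 0.158, 0.242 and 0.403 against 0.0362, 0.00614 and 0.0554 did not overlap, and Itgb6 fell by 2.93 ± 0.61 (adjusted p = 0.0441, 0.0259 to 0.197 with 1 sample left out). It entered the high-stretch test only through its unstretched cultures, so it could be seen there only to fall, and these values are description only. Beta6 is an epithelial chain that pairs with alphav and activates latent TGF-beta.

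Itgb3 and Itgb4 rose under high stretch. Itgb3, the vitronectin receptor chain that pairs with alphav, gave 1.24, 1.84 and 2.48 CPM unstretched and 5.30, 4.36 and 6.10 CPM stretched. The groups were apart, and the rise was 1.5 ± 0.30 on the log2 scale, or 2.84-fold in the means (edgeR adjusted p = 0.0382, 0.00343 to 0.180 with 1 sample left out). Under low stretch Itgb3 read 5.76, 3.87 and 1.40 CPM without and 2.58 to 22.3 CPM (median 6.93 CPM) with stretch. The groups overlapped, and 1 stretched culture stood far above the rest. The log2 fold change of 1.19 ± 0.69 did not pass (adjusted p = 0.323). Within runs 1, 2 and 3 it was 1.44, 0.84 and 0.89, and with the run as a block Itgb3 passed (1.06, adjusted p = 0.00843).

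Itgb4, the chain that pairs with alpha6 in hemidesmosomes, had 18, 20 and 31 counts unstretched and 80, 53 and 92 counts under high stretch, or 0.0983, 0.127 and 0.0992 CPM against 0.290, 0.325 and 0.319 CPM. The stretched cultures were all above the controls, and Itgb4 rose by 1.53 ± 0.29 on the log2 scale (edgeR adjusted p = 0.0328, 0.0298 to 0.172 with 1 sample left out). Under low stretch the values were 0.201, 0.153 and 0.191 CPM against 0.105 to 0.414 CPM with a median of 0.169 CPM. The controls fell inside the stretched range, and the log2 fold change was 0.21 ± 0.38 (adjusted p = 0.768).

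The abundant beta chains were higher in the mean without passing. Itgb1 gave 1034, 1117 and 1057 CPM unstretched and 1118 to 1617 CPM (median 1438 CPM) under low stretch. The lowest stretched culture was level with the highest control, and the log2 fold change was 0.37 ± 0.13 (edgeR adjusted p = 0.117, and 0.0108 with the plate run block). In experiment 2 Itgb1 gave 319, 304 and 516 CPM against 821, 427 and 585 CPM, groups that overlapped (0.69 ± 0.30, adjusted p = 0.352). Itgb5, another partner of alphav, gave 293, 316 and 236 CPM unstretched against 333 to 412 CPM (median 354 CPM) under low stretch. All 6 stretched cultures exceeded the controls, with a log2 fold change of 0.39 ± 0.11 (adjusted p = 0.0655, and 0.00452 with the block). Under high stretch it gave 521, 659 and 354 CPM against 563, 837 and 663 CPM, with overlap (0.43 ± 0.27, adjusted p = 0.581).

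Itgb8, which like beta6 activates latent TGF-beta, was lower in the mean in both experiments. It gave 19.9, 16.6 and 24.4 CPM against 11 to 19.5 CPM (median 15.4 CPM) under low stretch, and 2.40, 1.26 and 5.27 CPM against 1.42, 1.07 and 1.45 CPM under high stretch. Both comparisons overlapped, with log2 fold changes of -0.44 ± 0.19 and -1.18 ± 0.48 (edgeR adjusted p = 0.203 and 0.297). With the plate run as a block both passed, at -0.44 (adjusted p = 0.0176) and -0.97 (adjusted p = 0.0291).

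The proteins that switch integrins on showed no call. Talin-1 (Tln1) gave 614, 669.6 and 682 CPM unstretched and 539 to 644 CPM (median 551 CPM) under low stretch. Of the 6 stretched cultures 4 lay below the controls, with a log2 fold change of -0.19 ± 0.08 (edgeR adjusted p = 0.203). Under high stretch Tln1 gave 1017, 1144 and 765 CPM against 738, 948 and 861 CPM, which overlapped (-0.20 ± 0.21, adjusted p = 0.811). Tln2 had log2 fold changes of -0.27 and -0.14, and Fermt2, the kindlin of most adherent cells, 0.09 and 0.17. Tln2 passed under low stretch with the plate run block (-0.27, adjusted p = 0.0472).

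The complex of integrin-linked kinase, PINCH and parvin (Ilk, Lims1, Lims2 and Parva) gave no call without a block either. Ilk counts were far below what its transcript level would give. Over all 15 samples Ilk averaged 12.6 CPM and 300 TPM, so its CPM per kilobase of exon was 0.0153 of its TPM, against a median of 0.345 and a range of 0.179 to 0.649 over the other 33 members with at least 1 TPM. In the GENCODE M21 annotation of GRCm38, 89.7% of the 2744 exonic bases of Ilk overlap Taf10 and Rrp8 on the other strand, and the strand setting of the counting is not given in the sources used here. The part of the overlap in the low Ilk count was not tested. Among members under 1 TPM, Itga4 had the lowest such ratio, 0.0416, with 8.04% of its exonic bases overlapping Cerkl on the other strand.

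**Figure D4:**
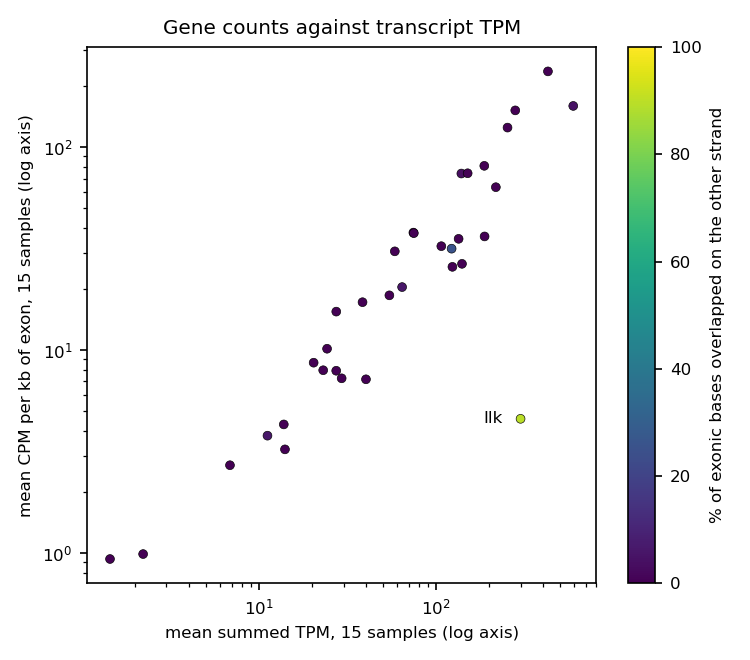
Mean CPM per kilobase of exon against mean summed TPM over 15 samples for the members with at least 1 TPM (log axes), coloured by the share of exonic bases that overlap a gene on the other strand. Ilk, with 89.7% overlap, lies at 300 TPM but far below the other members in counts.

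Ilk is therefore given on both scales. Its counts came to 7.26, 8.03 and 7.76 CPM unstretched and 7.73 to 13.9 CPM (median 10.7 CPM) under low stretch, and to 16.3, 18.5 and 9.34 CPM against 15.6, 19.2 and 23.2 CPM under high stretch. On the TPM scale it read 237, 236 and 227 TPM against 233 to 295 TPM, and 355, 396 and 281 TPM against 365, 430.1 and 389 TPM. Both scales overlapped in both experiments. The log2 fold changes were 0.46 ± 0.19 and 0.40 ± 0.29 in counts (edgeR adjusted p = 0.173 and 0.666) and 0.17 and 0.21 in TPM (limma adjusted p = 0.231 and 0.676, with a pseudocount of 0.1 TPM). Lims1 and Parva had log2 fold changes of 0.19 and 0.05 under low and -0.06 and 0.23 under high stretch. All 6 low-stretch cultures exceeded their controls for Lims1, which passed with the plate run block (0.19, edgeR adjusted p = 0.0491), as did Ilk counts (0.43, adjusted p = 0.0418). Lims2 had 0.31 and 0.79, and passed under high stretch with the plate run block (0.84, adjusted p = 0.0274).

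Actin-linking proteins of the adhesion plaque were mostly higher in the mean. Vinculin (Vcl), which reinforces talin under tension, gave 263, 275 and 246 CPM unstretched and 244 to 379 CPM (median 312 CPM) under low stretch, and 150.1, 162 and 201 CPM against 283, 191 and 275 CPM under high stretch. The groups overlapped both times, with log2 fold changes of 0.23 ± 0.14 and 0.55 ± 0.21 (edgeR adjusted p = 0.345 and 0.279). Zyxin (Zyx), which gathers at strained actin fibres, had 0.21 and 0.19, and all 6 low-stretch cultures exceeded their controls (adjusted p = 0.0978, and 0.0152 with the plate run block). Vasp and Lpp, its partners, had 0.28 and 0.27 under low and 0.27 and 0.29 under high stretch, and Vasp passed under low stretch with the block (0.25, adjusted p = 0.0230). The tensins Tns1, Tns2 and Tns3 had 0.01, -0.12 and 0.27 under low and -0.03, -0.27 and 0.45 under high stretch.

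Hic-5 (Tgfb1i1), a LIM protein related to paxillin that responds to TGF-beta, had the largest log2 fold change of the cytoplasmic group in both experiments without passing. It gave 128, 141 and 87.9 CPM unstretched against 128 to 218 CPM (median 196 CPM) under low stretch, and 186, 255 and 132 CPM against 288, 385 and 355 CPM under high stretch. The low-stretch groups overlapped at their edges and the high-stretch groups were apart. The log2 fold changes were 0.60 ± 0.21 and 0.84 ± 0.26 (edgeR adjusted p = 0.111 and 0.156), and with the plate run block they were 0.60 and 0.88 (adjusted p = 5.34e-05 and 0.0133). Within runs 1 to 3 the change was 0.62, 0.61 and 0.58. Paxillin (Pxn) itself gave 267, 232 and 272 CPM unstretched against 209.8 to 289 CPM (median 227 CPM), and 450.2, 449 and 305 CPM against 255, 369 and 293 CPM under high stretch. Both pairs overlapped, with log2 fold changes of -0.09 ± 0.12 and -0.39 ± 0.23 (adjusted p = 0.683 and 0.533).

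**Figure D5:**
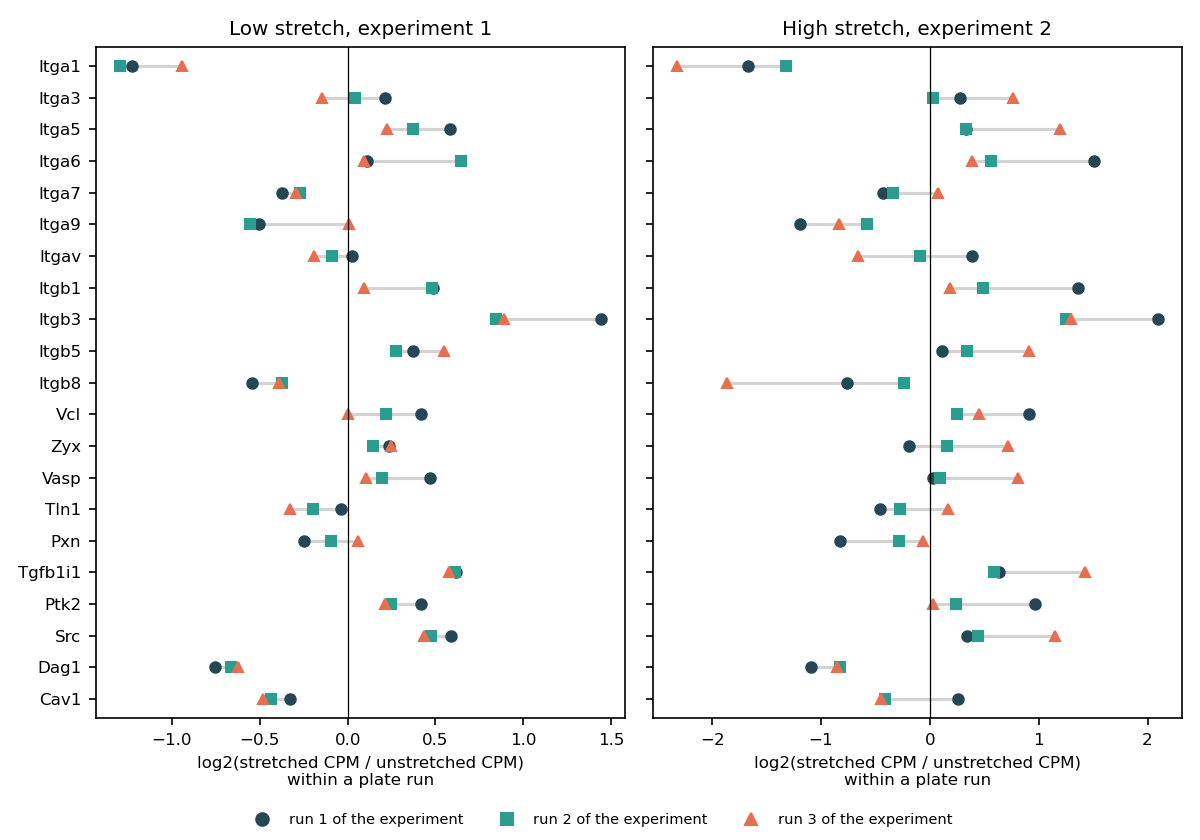
Log2 ratio of stretched to unstretched CPM within each plate run, for 21 members in experiment 1 (left, the mean of 2 stretched cultures per run) and experiment 2 (right, 1 stretched culture per run). Tgfb1i1 in experiment 1 lies between 0.58 and 0.62 in all 3 runs, whereas Itgb8 in experiment 2 spreads from -0.24 to -1.86.

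Of the signalling proteins, the kinases Ptk2 and Src rose under low stretch. Ptk2, focal adhesion kinase, gave 90.5, 95.3 and 89.6 CPM unstretched and 102 to 124 CPM (median 113 CPM) stretched. The groups were apart, and Ptk2 rose by 0.29 ± 0.07 on the log2 scale (edgeR adjusted p = 0.0478, 0.0393 to 0.213 with 1 sample left out). Under high stretch it gave 39.3, 41.4 and 56.1 CPM against 76.6, 49.1 and 57.4 CPM, with overlap (0.42 ± 0.23, adjusted p = 0.494). Src gave 87.7, 92.5 and 76.6 CPM unstretched and 103 to 138 CPM (median 127 CPM) under low stretch. No stretched culture fell into the control range, and Src rose by 0.50 ± 0.11 (adjusted p = 0.0293, 0.0171 to 0.160 with 1 sample left out). Under high stretch Src gave 144, 169.7 and 92.5 CPM against 182, 231 and 205 CPM. These groups were also apart, but the log2 fold change of 0.61 ± 0.24 did not pass (adjusted p = 0.296). Ptk2b, the second kinase of this family, the p130Cas gene Bcar1 and Git1, an adaptor of paxillin, had log2 fold changes of 0.04, -0.03 and 0.07 under low and 0.32, 0.14 and 0.05 under high stretch.

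The non-integrin membrane proteins were lower in the mean in both experiments. Dag1 gave 516, 498 and 721 CPM unstretched and 269.8 to 502 CPM (median 336 CPM) under low stretch. The groups met at their edges, and the log2 fold change of -0.67 ± 0.19 did not pass (edgeR adjusted p = 0.0690, and 0.000232 with the plate run block). Under high stretch Dag1 gave 753, 667 and 661 CPM against 352, 375 and 365 CPM. The groups were far apart, and Dag1 fell by 0.93 ± 0.16 on the log2 scale, or 1.9-fold in the means (adjusted p = 0.0242, 0.00496 to 0.177 with 1 sample left out). It also passed on the TPM scale (limma adjusted p = 0.0291). Cav1, the coat protein of caveolae, gave 285, 394 and 324 CPM against 209.7 to 292 CPM (median 244 CPM) under low stretch, and 126, 121 and 165 CPM against 151, 90.9 and 121 CPM under high stretch. Both pairs overlapped, with log2 fold changes of -0.42 ± 0.13 and -0.18 ± 0.23 (adjusted p = 0.0875 and 0.854), and under low stretch Cav1 passed with the block (-0.42, adjusted p = 0.000984) and on the TPM scale (-0.53, limma adjusted p = 0.0284).

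The transcripts of these genes showed no called shift in usage, the question named in the study's title. Of 69 member transcripts tested under low stretch, in 29 genes, 0 passed with limma, against 0.0144% of 27720 transcripts, and 14 had an unadjusted p under 0.05. Of 67 tested under high stretch, in 27 genes, 0 passed, against 0% of 23408, and 8 were under 0.05 before adjustment. Under low stretch Parva-202, a short coding transcript of alpha-parvin, ranked first and held 6.96, 6.32 and 5.63% of Parva TPM unstretched and 9.23 to 14.0% (median 12.4%) stretched. The groups did not overlap, and the adjusted p was 0.131 in limma, or 0.0335 with a pseudocount of 1 TPM. Itga1-206, annotated with a retained intron, held 27.3, 30.1 and 28.2% against 32 to 37.7% (median 33.9%, adjusted p = 0.267). Itga7-202 held 65.8, 66.2 and 57.8% against 70.3 to 77.8% (median 71.8%, adjusted p = 0.267).

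Under high stretch the lowest p-values came from tensins. The non-coding Tns3-202 held 29.2, 34.2 and 26.3% of Tns3 TPM unstretched and 42.4, 44.1 and 44.2% stretched (limma adjusted p = 0.320). The coding Tns3-201 mirrored it, with 70.8, 65.8 and 73.6% against 57.6, 55.9 and 55.7% (adjusted p = 0.324). Tns2-202 held 32.8% in each unstretched culture and 21.0, 19.6 and 26.2% in the stretched ones (adjusted p = 0.374). All 3 pairs of groups were apart, but these transcripts were picked for their low p-values. The share of all transcripts without overlap was not computed, here or for the other transcripts named. Tns3-201 and Tns3-202 together held nearly all of Tns3 TPM, so they are not separate results. Under low stretch Tns3-202 held 28.4, 31.2 and 24% against 30.8 to 42.6% (median 39.4%), which overlapped (adjusted p = 0.363).

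The coding variants of the main laminin receptor gave no call. Itga3-201, with 3159 coding bases, held 90.5% ± 0.803 of Itga3 TPM unstretched and 88.1% ± 1.9 under low stretch (SD, n = 3 and 6), and 91.4% ± 1.21 against 87.7% ± 1.85 under high stretch (n = 3 each). Itga3-203, with 3204 coding bases, held 6.55% ± 0.832 against 9.15% ± 1.69 and 7.77% ± 1.60 against 11.2% ± 1.47. The high-stretch groups of both transcripts did not overlap, and neither passed in limma (adjusted p from 0.431 to 0.624). Itga6-201 held 49.5% against 46.6% and 53.5% against 51.5% of Itga6, and the non-coding Itga6-203 held 43.9% against 43.7% and 40.3% against 41.6%. Itgb1-201 held 90.3 to 91.6% of Itgb1 TPM in all 4 groups, and Itgb1-202, annotated as a target of nonsense-mediated decay, held the 8.34 to 9.69% beside it. Vcl-201 held 95.2 to 99.2% of Vcl TPM, and Vcl-202 from 0.799 to 4.63%, outside the limits for testing.

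Matrix proteins that these receptors bind changed in both directions. Of 37 integrin ligands, 33 were tested in each comparison; edgeR called 3 up and 8 down under low stretch and 4 up and 4 down under high stretch. Over all genes these shares were 1.85% up and 3.6% down under low and 1.31% up and 2.16% down under high stretch, which also serve the lists below. Fibronectin (Fn1) rose from 3314 ± 803 to 6385 ± 943 CPM under low stretch (log2 fold change 0.95) and from 2998 ± 275 to 8706 ± 974 CPM under high stretch (1.54). Osteopontin (Spp1) rose under low stretch (1.15) and Ccn2 under high stretch (2.12). The laminin alpha3 chain Lama3 fell (-2.67 and -2.66), as did periostin, Postn (-1.61 and -2.08), and nephronectin, Npnt (-0.90 and -1.10). The median log2 fold change over the ligands was -0.08 under low and -0.0048 under high stretch, against 0.01 and -0.02 over all genes.

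Further LIM-domain and actin-linking proteins, 34 in all, gave 4 up and 2 down of 34 tested under low stretch, against 5.45% of all genes, and 4 up and 2 down of 33 under high stretch, against 3.47%. Tes, which binds zyxin, rose in both (log2 fold changes 1.15 and 1.48). Csrp1 and Pdlim7 rose under low stretch (1.13 and 0.81), and Pdlim1 and the alpha-actinin Actn1 under high stretch (1.97 and 1.22). Ablim1 fell in both (-0.86 and -0.90) and Lmo7 under low stretch (-0.55). The medians over the list were 0.16 and 0.24.

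Of 38 genes for adhesion signalling and turnover, 36 were tested in each comparison, with 2 up and 0 down under low and 1 up and 0 down under high stretch, which is near the 5.45% and 3.47% of all genes. Fyn, a kinase of the Src family, rose from 60.3 ± 10.5 to 98.4 ± 9.27 CPM under low stretch (0.71) and from 48.3 ± 5.86 to 90.6 ± 7.89 CPM under high stretch (0.91), and the calpain Capn1 rose under low stretch (0.48). The medians over the list were 0.11 and 0.13. Of 25 genes for caveolae and the dystroglycan complex, 21 were tested: 4 fell under low stretch, against 3.6% of all genes, among them dystrophin (Dmd, from 6.47 to 3.24 CPM), utrophin (Utrn, from 681 to 436 CPM) and Pacsin2 (from 121 to 98.6 CPM), and 0 were called under high stretch in edgeR, where 3 had an unadjusted p under 0.05 and DESeq2 called 1. The medians over the list were -0.11 and -0.14.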

How the data were processed

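Poly(A) RNA was sequenced from 15 cultures as stranded paired-end libraries, per the labels' protocols. The authors deposited raw counts for 55416 genes and TPM for 140789 transcripts. The submitters' processing notes list STAR 2.7.5c, featureCounts, Subread 2.0.0, DESeq2 1.38.3, Salmon 1.9.0 and mm39; the annotation and the strand setting of counting are not given in the sources used here, and without them reads of overlapping genes on opposite strands cannot be assigned with certainty. Symbols, transcript links and exon overlap came from GENCODE M21 (52083 genes matched), and rows without a symbol took 0.132 to 0.231% of counts and stayed in the fits. At 172211836 to 396658285 counts per sample, counting error bears mainly on the sparse tested members Itga2, Itga4, Itga11, Itgb4 and Itgb6.

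Gene counts were fitted in R 4.3.3 by edgeR 4.0.16 (TMM, filterByExpr, quasi-likelihood F test, Benjamini-Hochberg at 0.05), each stretched group with its own controls, and the difference of effects over all 15 samples. CPM used TMM within an experiment. Usage was tested with limma 3.58.1 on log2((transcript TPM + 0.1)/(other TPM of the gene + 0.1)) for genes of at least 1 TPM and mean fractions of 0.05 to 0.95. In simulated data with a log2 change of 2 in 200 genes, edgeR recovered 99.0% among 21361 genes (low), with 10 false calls. It recovered 95.5% among 18209 (high) and 89.5% among 21531 (difference), with 13 and 8 false calls. The usage test recovered 91.0% and 93.5% of 200 transcripts changed 4-fold among 27618 (low) and 23371 (high). It made 16 and 35 false calls in unchanged genes. All simulated transcripts had the same independent noise at every level, without plate runs. Some real transcripts varied widely: Parva-202 held 8.37 to 25.3% of Parva TPM in the unstretched cultures of experiment 2. The usage recovery can therefore not be carried over to such transcripts. Recovery of smaller changes, which most members had, was not tested. Recovery was not split by count level, so these rates cannot be carried over to the sparse members.

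Members and lists were chosen with earlier results of these data known. Values by sample are given for called members, for 12 members chosen whatever their values, for the 3 largest uncalled changes per comparison and for the 3 lowest p-values of the difference; from each list at most 3 rises and 3 falls of genes with at least 1 CPM are named. Transcripts named are those with the lowest p-values and those of Itga3, Itga6, Itgb1 and Vcl. Replicate numbers come from the titles and nothing says that they pair cultures. Samples of equal number had a mean correlation of deviations of -0.0713 (experiment 1) and 0.175 (experiment 2, -0.163 to 0.449). Samples of a plate run in experiment 1 did deviate together (mean 0.438), but no source says that a run was a culture batch. The main fits therefore have no block, and in experiment 1 they count the spread between runs as error, so they may miss changes. Alternatives were DESeq2 1.42.0, RLE scaling, a fit of every gene, a minimum mean of 100 counts, 1 joint fit, replicate and plate run blocks, each sample left out, pseudocounts of 0.01 and 1 TPM and a minimum of 5 TPM; leaving out a plate run and limma on log2(summed TPM + 0.1) were added after the data were seen.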

Additional observations from a re-analysis of the deposited data

Results flagged for a closer look

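In a group of 6, a culture was marked where its gap to the nearest other culture exceeded 0.625 of the group's range (Dixon's 95% value). Chance marks about 1 in 20 such groups, and 3 of the 40 members tested under low stretch had a marked culture. Low-stretch replicate 1 stood above the others for Itgb3, at 22.3 CPM against 2.58 to 8.96 CPM, and for Itga10, at 2.09 CPM against 1.53 to 1.71 CPM. Low-stretch replicate 5 stood above the others for Tns1, at 447.9 CPM against 345.5 to 378.9 CPM.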

How the results depend on the processing

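The number of members called under low stretch was 4 in the main fit, and shares of all genes called are given in brackets. It became 10 with DESeq2 (13.1%) and 3 with RLE scaling (5.43%). It was 2 of 42 without a filter on low counts (2.85%) and 2 of 35 with a mean count of at least 100 (6.91%). With all 15 samples in one fit it was 1 of 41 (2.91%), and with the plate run block 19 (28.2%). It was 0 without plate run 2 (0.867%), 7 without plate run 3 (3.95%) and 2 with limma on summed TPM (7.3%). With a sample left out it ranged from 1 to 5 (0.998% to 7.57%). The number under high stretch, 5, became 6 with DESeq2 (7.57%) and 6 without a filter on low counts (3.21%). Of these last, 1 was a cytoplasmic protein. It stayed at 5 with RLE scaling (3.48%) and with all 15 samples in one fit (6.76%). The number became 2 of 35 with a mean count of at least 100 (3.00%) and 2 with limma on TPM (2.73%). It was 10 with the replicate block, which is the plate run block there (8.35%). With a sample left out it ranged from 0 to 8 (0.0755% to 7.77%). With the replicate block low stretch kept 4 calls, but for Dag1, Itga1, Itga5 and Itgb3. Among all genes it called 490 in place of 1181. That fit held only replicates 1 to 3 of each group and left out the other low-stretch cultures. The effect of the block and that of the missing cultures cannot be told apart. The replicate numbers did not pair samples in experiment 1. The difference of effects stayed at 0 in every fit run. Usage called 0 transcripts except 1 under low stretch with a pseudocount of 1 TPM (Parva-202). With a sample left out, signs turned for Cav1 under high stretch (log2 fold changes from -0.37 to 0.014, positive without high-stretch replicate 2), Itga3 under low stretch (-0.050 to 0.17, negative without low-stretch replicate 4 or unstretched replicate 3), Itga9 under low stretch (-0.49 to 0.16, positive without unstretched replicate 3), Itgav under high stretch (-0.38 to 0.26, positive without high-stretch replicate 2 or unstretched replicate 3) and Itgb4 under low stretch (-0.089 to 0.35, negative without low-stretch replicate 1). Itga3 under low stretch was -0.082 on TPM. The cause of these changes was not tested. Over all genes, limma on TPM called 156 up and 814 down under low stretch, where counts gave 400 and 781. Depth limits Itga2, Itga4, Itga11, Itgb4 and Itgb6, with 0 to 141 counts a sample, and Itga8 and Fermt1, which could not be tested.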

Other observations

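Of 20 activators and inactivators, 18 were tested in each comparison, and edgeR called 3 up and 1 down under low and 1 up under high stretch, against 5.45% and 3.47% of all genes. Neuropilin-1 (Nrp1) rose from 41.9 ± 15 to 129 ± 45.9 CPM under low stretch (log2 fold change 1.62 ± 0.33, adjusted p = 0.0195) and from 15.3 ± 3.68 to 72.8 ± 19.4 CPM under high stretch (2.25 ± 0.28). Filip1l and the tetraspanin Cd9, a membrane partner of integrins, rose under low stretch by 1.04 and 0.55 on the log2 scale, and Kank1, which binds talin at the rim of adhesions, fell by 0.67. The median log2 fold change over the list was 0.15 under low and 0.13 under high stretch, against 0.01 and -0.02 over all genes.

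Integrins of leukocytes and platelets stayed sparse. The 8 genes summed to 2.75 to 5.59 TPM over all samples, and Itga2b was the 1 gene with a mean of at least 1 TPM in any group. In edgeR 0 of 5 tested passed under low and 0 of 4 under high stretch, with 1 unadjusted p under 0.05 in each, and DESeq2 called 0 and 1. Of 7 further partners of integrin-linked kinase, 4 were tested; 0 passed in edgeR in either comparison, with 3 and 0 unadjusted p under 0.05, and DESeq2 called 2 and 0. Of 8 macrophage and leukocyte markers, 5 were tested under low and 4 under high stretch, and edgeR called 0 up and 1 down in each, Csf1r. DESeq2 called 1 up and 1 down in each, and Adgre1 was listed at 0 TPM in 3 of the 4 groups.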
